A study of Homo sapiens with 2 samples.

Results

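The regions described here were HNRNPK ChIP-seq peaks at the ends of protein-coding genes. A peak was included when it lay on chromosomes 1 to 18 or 20 to 22 and its midpoint fell within 500 bp, outside or inside, of either end of a protein-coding gene span in the RefSeq annotation of GRCh38. The rule used position only and no measured value. Distances from a peak to a gene end, and its place before, past, inside or outside a gene, are those of the midpoint. The peak itself can reach across the end. There were 791 such gene-end peaks among 19675 peaks on these chromosomes and 22351 peaks in the whole list. The study used H1299, a human cell line labelled as lung adenocarcinoma, without treatment, and sequenced DNA pulled down with an HNRNPK antibody (IP) beside DNA that was not pulled down (input), a design known as ChIP-seq. There was 1 IP library and 1 input library, so no value carries a replicate error and no test across conditions was possible. The first letter of the cell line differs in the names given to the peaks, which were read here as peaks of the H1299 cells. Each peak came with the authors' fold enrichment over the local background, a pileup, which is the scaled depth of overlapping IP fragments, a p-value and a false discovery rate (FDR).

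HNRNPK is a nuclear protein with KH domains that binds C-rich single-stranded DNA and RNA. It takes part in transcription, splicing, mRNA stability and translation, and on promoters it is known for binding CT elements, which are runs of C broken by T.

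Promoter windows overlapped by gene-end peaks are shown first, for the peaks with the highest fold enrichment among those with such an overlap. Each window runs from 250 bases before to 50 bases after an annotated start, which need not be the outer end of the gene span, is written 5′ to 3′ on the strand of the gene and comes from RefSeq GRCh38.p14. Capitals mark GCGAGG and, separately, CTAATG, letters named in the study, on either strand. The 8 peaks with the highest fold enrichment among those overlapping a window of their own gene gave the windows of GOLGA6L1 at chr15:23136773-23137072 (minus strand), LOC122455342 at chr17:76569599-76569898 (minus), CD68 at chr17:7579388-7579687 (plus), HEXIM1 at chr17:45148225-45148524 (plus), ATE1 at chr10:121927982-121928281 (minus), H3C14 at chr1:149841159-149841458 (minus), TEDC2 at chr16:2459859-2460158 (plus) and F13A1 at chr6:6320613-6320912 (minus). HEXIM1 had 2 matches of GCGAGG, of which the one at chr17:45148347-45148352, 128 bases before the start, lay under its peak and the other did not. F13A1 had 1 match of GCGAGG outside its peak, and CD68 had 1 match of CTAATG outside its peak. The other 5 windows held neither motif. Windows lay under their peaks to different extents, from 44 of 300 bases at F13A1 and 61 at CD68 to all 300 at ATE1 and H3C14. Peaks without such an overlap, as at H2AC17, are not shown.
GOLGA6L1: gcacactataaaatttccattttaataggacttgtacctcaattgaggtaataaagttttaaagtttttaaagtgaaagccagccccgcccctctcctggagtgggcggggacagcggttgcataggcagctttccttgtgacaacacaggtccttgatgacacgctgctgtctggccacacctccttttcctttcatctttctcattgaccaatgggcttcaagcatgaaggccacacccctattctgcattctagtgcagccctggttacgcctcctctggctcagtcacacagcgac
LOC122455342: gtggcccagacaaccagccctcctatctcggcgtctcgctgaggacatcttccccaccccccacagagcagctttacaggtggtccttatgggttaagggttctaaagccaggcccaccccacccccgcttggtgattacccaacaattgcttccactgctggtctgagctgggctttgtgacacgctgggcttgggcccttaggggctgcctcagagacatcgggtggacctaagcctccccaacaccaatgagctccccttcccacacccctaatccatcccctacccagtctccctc
CD68: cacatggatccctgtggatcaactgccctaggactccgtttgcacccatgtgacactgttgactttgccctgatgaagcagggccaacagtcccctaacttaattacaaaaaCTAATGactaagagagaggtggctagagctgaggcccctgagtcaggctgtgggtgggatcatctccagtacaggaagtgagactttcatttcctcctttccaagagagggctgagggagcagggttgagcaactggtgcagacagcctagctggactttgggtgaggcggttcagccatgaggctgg
HEXIM1: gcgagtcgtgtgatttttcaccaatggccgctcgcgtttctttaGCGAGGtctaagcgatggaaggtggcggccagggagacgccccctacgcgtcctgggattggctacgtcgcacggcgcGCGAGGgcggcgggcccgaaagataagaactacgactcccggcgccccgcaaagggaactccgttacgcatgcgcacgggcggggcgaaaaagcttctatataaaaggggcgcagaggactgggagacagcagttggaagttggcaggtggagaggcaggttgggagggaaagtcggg
ATE1: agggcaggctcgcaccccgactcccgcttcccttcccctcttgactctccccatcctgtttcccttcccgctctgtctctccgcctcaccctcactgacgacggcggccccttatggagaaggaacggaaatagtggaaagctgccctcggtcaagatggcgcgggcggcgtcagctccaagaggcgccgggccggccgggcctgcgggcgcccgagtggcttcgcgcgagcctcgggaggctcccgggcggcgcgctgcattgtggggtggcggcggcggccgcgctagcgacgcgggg
H3C14: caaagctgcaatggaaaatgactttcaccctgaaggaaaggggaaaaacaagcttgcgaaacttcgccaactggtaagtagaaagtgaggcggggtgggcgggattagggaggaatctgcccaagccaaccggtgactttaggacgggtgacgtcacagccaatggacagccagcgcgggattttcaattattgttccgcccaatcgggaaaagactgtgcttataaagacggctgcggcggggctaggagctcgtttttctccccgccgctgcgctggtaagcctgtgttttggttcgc
TEDC2: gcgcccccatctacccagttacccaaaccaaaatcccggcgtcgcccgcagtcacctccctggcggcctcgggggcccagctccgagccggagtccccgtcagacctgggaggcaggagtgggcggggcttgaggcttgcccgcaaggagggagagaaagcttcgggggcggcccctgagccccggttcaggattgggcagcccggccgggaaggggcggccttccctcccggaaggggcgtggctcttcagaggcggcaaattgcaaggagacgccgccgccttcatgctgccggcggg
F13A1: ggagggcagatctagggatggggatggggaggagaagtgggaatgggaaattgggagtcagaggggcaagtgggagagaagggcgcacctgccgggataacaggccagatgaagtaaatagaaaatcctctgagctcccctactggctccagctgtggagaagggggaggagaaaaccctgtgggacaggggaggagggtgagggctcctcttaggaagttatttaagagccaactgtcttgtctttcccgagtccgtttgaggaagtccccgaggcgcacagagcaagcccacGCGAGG

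A second set shows C-rich stretches, since the motif CCCTCCCC, a CT element, was more frequent in the windows under gene-end peaks than in all promoter windows (values below). The 60-base stretches are those of the 4 gene-end peaks with the highest fold enrichment that covered a match, chosen after their values were seen, with the match in capitals. They were PBX2 at chr6:32190209-32190268 (minus strand), S100A13 at chr1:153634473-153634532 (minus), DDI2 at chr1:15617208-15617267 (plus) and MAP3K7 at chr6:90587122-90587181 (minus), all from RefSeq GRCh38.p14 and written 5′ to 3′ on the strand of the gene. PBX2, a homeodomain partner of HOX proteins, had its match 40 bases before the start under a peak with a fold enrichment of 5.25. S100A13, a calcium-binding protein, had it 145 bases before the start (fold enrichment 5.01). DDI2, a protease that activates the transcription factor NFE2L1, had it 226 bases before the start (4.70), and MAP3K7, the kinase TAK1, had it 83 bases before the start (4.55).
PBX2: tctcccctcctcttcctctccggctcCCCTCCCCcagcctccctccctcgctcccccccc
S100A13: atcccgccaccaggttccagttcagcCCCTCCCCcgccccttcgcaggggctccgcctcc
DDI2: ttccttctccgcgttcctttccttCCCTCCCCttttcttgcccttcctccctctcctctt
MAP3K7: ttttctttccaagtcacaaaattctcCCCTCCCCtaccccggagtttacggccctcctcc

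The gene-end peaks were mostly small. Their fold enrichment had a median of 3.61 (quartiles 3.22 and 4.06, lowest 2.15, highest 8.18), and the other 18884 peaks of the same chromosomes had the same median of 3.61. Pileups were whole multiples of 0.9735, so they could be read as a depth of 5 to 26 overlapping fragments with a median of 8, which is no count of all fragments in a peak. An FDR under 0.05 was given to 134 of the 791 gene-end peaks, or 16.9% (Wilson 95% confidence interval, 14.5% to 19.7%), against 15.5% of the whole list and 14.6% (14.1% to 15.1%) of the other peaks. The interval of the gene-end peaks holds the share of the whole list. A fold enrichment of at least 5 was reached by 32 gene-end peaks, or 4.05% (2.88% to 5.66%), against 3.19% of the list. All intervals here cover counting error only, and peaks of 1 library are not replicates. Length differed more. Gene-end peaks had a median length of 287 bp against 268 bp for the other peaks, and 73 of them, or 9.23% (7.40% to 11.45%), were 500 bp or longer against 5.26% (4.95% to 5.59%) of the others. The local background, the coverage that the fold enrichment and the pileup imply for the surroundings of a peak, had a median of 1.40 against 1.23, with a maximum of 6.06 against 78.0. Whether the higher background bears on peak length was not tested. At the edge of the window, the last peaks inside lay 499.5 bp from an end of SYNCRIP, ELOVL1 and FKBP4, with fold enrichments of 3.07, 3.34 and 3.68, and the nearest peaks outside lay 500.5 bp from CRHR2 (3.61), 501.5 bp from GRIN1 (4.48) and 503 bp from C1QL2 (2.93).

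**Figure D1:**
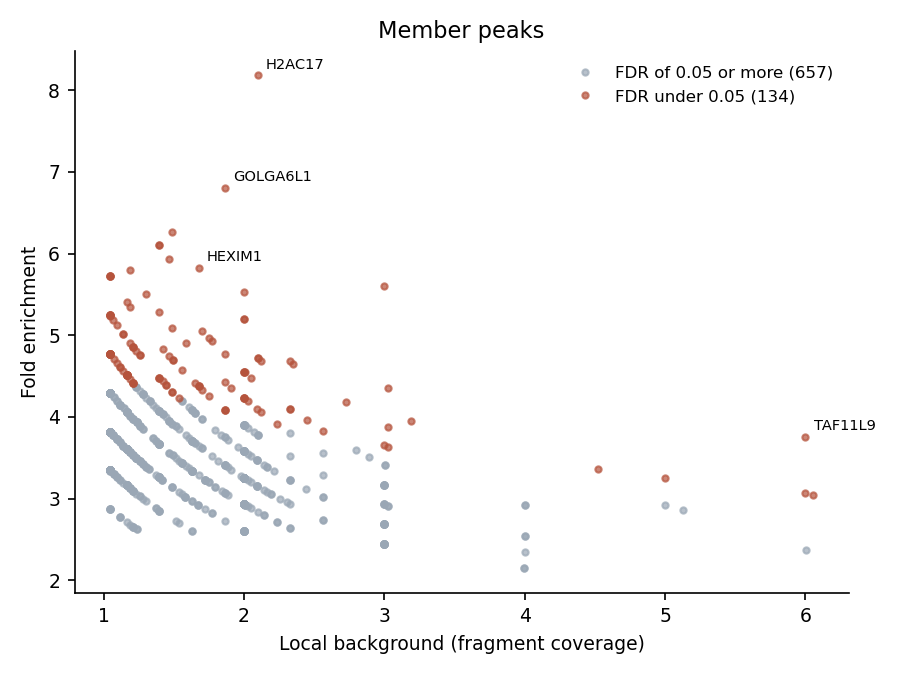
Fold enrichment of the 791 gene-end peaks (vertical axis, ratio) against their local background (horizontal axis, fragment coverage), each point 1 peak, coloured by an FDR under 0.05 (134 peaks) or not. H2AC17 stood highest at a fold enrichment of 8.18, while TAF11L9 reached a low FDR at a fold enrichment of 3.76 and a background of 6.0.

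Gene starts and far ends were told apart for the 13916 coding genes whose strand was given. A peak lay within 500 bp of the start for 386 of these genes, or 2.77% (2.51% to 3.06%), and within 500 bp of the far end for 274, or 1.97% (1.75% to 2.21%), so the intervals for start and far end did not overlap. Counted over peaks, the nearest end was a start for 353, a far end for 244 and an end of a gene without strand for 194. Starts thus made up 59.1% (55.1% to 63.0%) of the 597 peaks that could be assigned. The share was 55.8% (58 of 104, 46.2% to 64.9%) with an FDR under 0.05. With a fold enrichment of at least 5 it was 65.4% (17 of 26, 46.2% to 80.6%), and both intervals reached below an equal share. In the gene direction, 390 pairs of a peak and a start lay within 500 bp (exact Poisson 95% interval, 352.2 to 430.7), against 190.6 (178.7 to 203.1) expected from the density 2500 to 5000 bp away, a ratio of 2.05. Around far ends there were 279 (247.2 to 313.7) against 243.8 (230.3 to 257.9), a ratio of 1.14, and these intervals overlapped. With an FDR under 0.05 the numbers at starts were 68 (52.8 to 86.2) against 28.4 (23.9 to 33.5), a ratio of 2.39. At far ends they were 56 (42.3 to 72.7) against 33.0 (28.2 to 38.4), a ratio of 1.70. Neither pair of intervals overlapped, but these are intervals on pairs. A peak at the far ends of 2 genes, as at RAI1 with SREBF1, counted once for each. Pairs are thus not independent, and whether far ends stood apart when counted over peaks was not tested. The densest bin around starts was 250 to 500 bp inside the gene with 112 pairs, followed by the first 250 bp inside with 105. The bins upstream held 87 and 86. Around far ends the densest bin lay beyond the window, 500 to 750 bp past the gene, with 90 pairs. Levels differed little by position, as the median fold enrichment was 3.61 near starts and 3.57 near far ends.

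In all, 835 of 17675 coding genes had a gene-end peak, a share of 4.72% (4.42% to 5.05%). The highest fold enrichment, 8.18, was at H2AC17, a replication-dependent gene for the core histone H2A, from a peak of 587 bp at chr6:27891929-27892515 whose midpoint lay 477 bp past the far end of the gene. Its depth was 25 overlapping fragments over a local background of 2.10 and had an FDR of 3.47e-13. FOSL1, which encodes the AP-1 subunit FRA1, and CCDC85B, a coiled-coil protein, shared a peak of 1286 bp at chr11:65891292-65892577 with a fold enrichment of 6.10 and an FDR of 2.39e-05. This was the longest of the gene-end peaks. EIF4A1, the RNA helicase of the cap-binding complex that starts translation, and CD68, a lysosomal glycoprotein used as a macrophage marker, shared the peak at chr17:7578937-7579448, also at 6.10. Its midpoint lay 186.5 bp past the far end of EIF4A1 and 445.5 bp before the start of CD68. The peak itself reached into EIF4A1, which ends at base 7579006. HEXIM1, which with 7SK RNA holds the elongation kinase P-TEFb inactive, had its peak over the start, 78 bp inside the gene, at a fold enrichment of 5.83 (depth 15, FDR 2.56e-05).

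Peaks at RAB25, ATE1, PRAMEF20 and CLEC16A had equal fold enrichments of 5.72 at a depth of 11 each. RAB25 is a small GTPase of epithelial recycling endosomes, ATE1 attaches arginine to proteins bound for degradation, and CLEC16A acts in mitophagy and is known from autoimmune disease. The peak of ATE1 lay 354 bp inside the outer end of the gene at its start side, and its promoter window shown above belongs to an annotated start further inside the gene. The midpoints of the peaks of RAB25 and CLEC16A lay past the far end, by 356.5 and 452 bp. Further down were NCKAP5L, a microtubule-associated protein, at 5.50, TEDC2, a protein of the centriole, at 5.41 and F13A1, the catalytic subunit of the clotting factor that cross-links fibrin, at 5.35. BICRAL, a subunit of a SWI/SNF chromatin remodelling complex, and TBCC, a cofactor of tubulin folding, are divergent neighbours whose starts shared a peak at 5.29. At 5.25 the list was tied. C2orf69 and SLC25A20, the mitochondrial carrier of acylcarnitines, were named by the order of peak names, and PBX2, PRSS51 and ADAMTS7, a secreted metalloprotease, had the same value. The peaks of C2orf69, SLC25A20 and PBX2 all lay within 50 bp of the start, at a depth of 10 each.

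**Figure D2:**
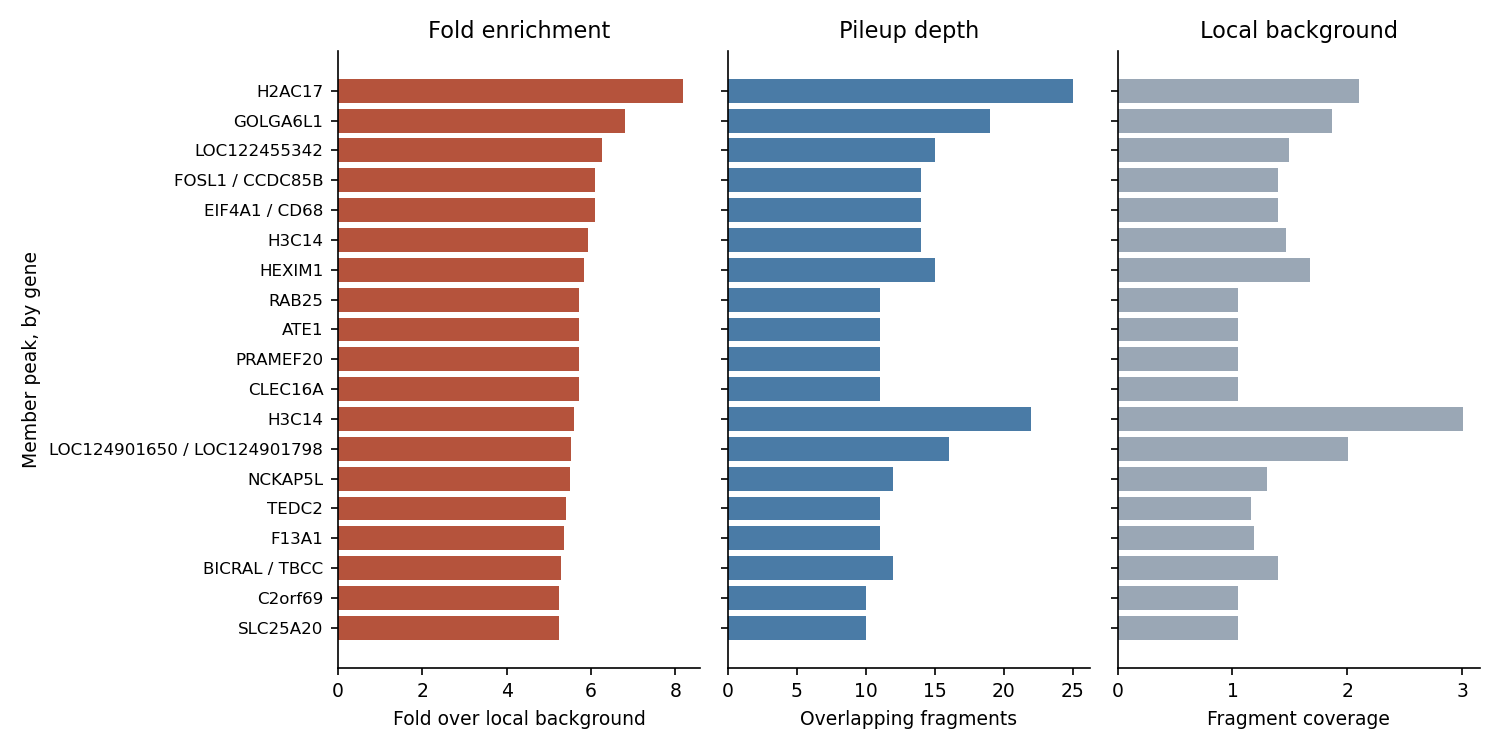
Fold enrichment (ratio), pileup depth (overlapping fragments) and local background (fragment coverage) of 19 of the 20 gene-end peaks with the highest fold enrichment, 1 bar per peak, named by the coding genes at whose ends they lay. Fold enrichment fell from 8.18 at H2AC17 to 5.25 at SLC25A20, at depths of 25 and 10, and the second H3C14 peak had the highest background, 3.0.

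Some peaks lay at genes of families with many similar copies, which were picked from general knowledge after values were seen and not counted. GOLGA6L1, of the golgin-like families of chromosome 15, had a fold enrichment of 6.81 and an FDR of 2.80e-08. PRAMEF20 belongs to the PRAME family cluster of chromosome 1. TAF11L9, one of a row of TAF11-like copies on chromosome 5, had only 3.76 over a background of 6.0, and its depth of 26, the highest of any gene-end peak, came with the tenth lowest FDR (7.97e-05). TBC1D28 (5.20), KCNJ18 (4.26), TRIM74 (4.19) and the NPIPB12 (4.84) and NPIPB15 (3.83) genes likewise belong to such families. How the authors treated reads with several matches was not given in the sources used here, so values at these genes are uncertain and their dependence on such reads was not tested. LOC122455342 (6.26), as well as LOC124901650 and LOC124901798, which shared a peak at 5.53, are predicted coding genes without an established function, and copies of them were not looked for.

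Of the 791 peaks, 711 lay at the ends of 1 coding gene and 80 at those of 2. Among the 80, both genes were met at their starts in 21, both at their far ends in 21, a start and a far end in 15, and strand was not given for a gene in 23. BICRAL with TBCC and S100A13 with CHTOP (5.01), an mRNA export factor, were pairs of starts. ZPR1, a zinc finger protein that binds growth factor receptors, was met at its far end and BUD13, a splicing factor, at its start by a peak at 4.80. ZBTB7B, the transcription factor that directs CD4 T cell fate, with DCST2, a sperm protein, met at their far ends, as did VWA5B2 with ALG3, a mannosyltransferase of N-glycan synthesis, and DDAH2 with MPIG6B, an inhibitory receptor of platelets. These 3 peaks each had a fold enrichment of 4.77 at a depth of 9 and an FDR of 0.0243. For these 80 peaks the position alone could not assign the signal to 1 gene.

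More than 1 gene-end peak was found at 34 genes, and CCDC197 and ZC3H12D, an RNase that limits inflammatory transcripts, had 3 each. Both ends were met in 28 genes, 7 of them by the same peak and 21 by separate peaks. The 7 were all histone genes, of 396 to 787 bp. Under the 500 bp rule only a gene of about 1000 bp or less can be met at both ends by 1 peak. Of the 25 genes of at most 1000 bp with a gene-end peak, 14 were histone genes. EIF4A1 combined the strong peak at its far end with a weaker one 441 bp inside from its start (3.63, FDR 0.0407), and these peaks lay at opposite ends of a gene of 6182 bp. CCDC85B had 2.93 at its start beside 6.10 at its far end. GPR162, an orphan receptor, had 4.72 at one end and 3.25 at the other, TMEM129, a ubiquitin ligase of the endoplasmic reticulum, 4.31 and 3.56, and TMSB10, an actin-binding thymosin, 3.71 at the start and 4.29 at the far end. CCDC197 had 4.91 at the far end and 3.84 and 2.87 at the start. Elsewhere the peaks of a gene flanked the same end. CLEC16A had 3.82 inside and 5.72 outside its far end, ZBTB9 had 4.51 before and 3.66 after its start, and URGCP had 3.02 outside and 4.08 inside its far end. NECAB2, a calcium-binding protein of neurons, had 4.23 and 3.88, and ATN1, the corepressor atrophin 1, 4.06 and 3.56. RAI1, the gene of Smith-Magenis syndrome, and SREBF1, the master regulator of lipid synthesis, meet at their far ends and shared a pair of peaks at 4.57 and 3.58. GAPDH, the glycolytic enzyme, had peaks at both ends at up to 3.81, named after its values were seen, and its lowest FDR was 0.0571.

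Histone genes had a gene-end peak in 15 of 87 cases, or 17.2% (10.7% to 26.5%), the highest share of the 15 gene groups examined. The interval lies above the 4.72% of all coding genes. Of these genes 6 had a peak with an FDR under 0.05, beside 151 of all 17675 coding genes (0.854%), and the 14 peaks had a median fold enrichment of 3.98. Chromosome 6 gave 8 of 55 histone genes and chromosome 1 gave 6 of 16, counted over the whole chromosome, and H1-10 on chromosome 3 was the remaining gene. H3C14, a gene for histone H3 in the chromosome 1 cluster, had 5.93 past its far end and 5.60 at its start. The latter came from a peak of 1213 bp with a depth of 22 and an FDR of 1.91e-07. This peak covered the start and had its midpoint before it. H1-4, a linker histone, reached 4.72, and H2AC17 with H2BC17, a divergent pair of genes for H2A and H2B, shared a peak at 4.48. H2AC11 followed at 4.36 at a depth of 17. Among genes of at most 1000 bp, 14 of 63 histone genes had a gene-end peak, or 22.2% (13.7% to 33.9%), against 11 of 423 other genes, or 2.60% (1.46% to 4.60%). Histone genes are near-identical copies in part (H3C14 and H3C15 among them), share peaks with their neighbours and were not tested against other genes.

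Gene groups were set by the first letters of gene symbols, so they are incomplete and their counts and order hold for those symbols only. Known genes of these kinds that the symbols missed include the kinases FGFR3 and NTRK3, the RNA processing genes CHTOP, BUD13 and CWC25, the homeobox genes HMX1 (3.73) and BARHL1 (2.93) and the matrix gene EMILIN1 (4.77). The immediate early genes ARC (4.06) and NPAS4 (3.81) were missed as well. Groups can overlap, and KLF15 counted both among the C2H2 zinc fingers and among the immediate early and stress genes. In the regulatory and signalling groups the intervals held the share of all coding genes. C2H2 zinc finger genes had a peak in 22 of 356 cases (6.18%, 4.12% to 9.18%), including ZNF200 (5.12), ZBTB7B, ZBTB9 and ZBTB5 (4.48). Homeobox genes gave 8 of 132 (6.06%, 3.10% to 11.5%), among them PBX2, POU2F3 (4.28), which specifies tuft cells, PAX2 (3.93), a regulator of kidney development, and HOXB8 (3.46). The kinase symbols gave 9 of 142 (6.34%, 3.37% to 11.6%). MAPK15, an atypical MAP kinase, had 5.20 at a depth of 15, MAP2K5, the kinase above ERK5, 4.77 past its far end, MAP3K7 4.55 before its start and CAMK1 3.34. One gene counted in that group, CAMK2N1, encodes an inhibitor of CaM kinase II and no kinase. Small GTPases and their regulators gave 15 of 241 (6.22%, 3.81% to 10.01%), among them RAB25, TBC1D28, TBC1D10B (4.09) and RHOF (3.93). Genes of the ubiquitin system gave 22 of 409 (5.38%, 3.58% to 8.01%), including TRIM39 (4.37), USP7 (4.37), the deubiquitinase of p53 and MDM2, KLHL20 (4.30), a substrate adaptor, and PSMB11 (4.30), a proteasome subunit of the thymus. Symbols of immediate early and stress genes gave 8 of 144 (5.56%, 2.84% to 10.6%), with FOSL1 at the highest fold enrichment. HSPG2 (4.07), counted by its symbol, encodes the matrix protein perlecan and no heat shock protein. CCN3 (3.81) is a secreted matricellular protein and HSPA12B (3.61) a distant HSP70 relative of endothelium.

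For genes of RNA and protein synthesis the intervals held the share of all coding genes. The RNA processing symbols had a peak in 6 of 206 cases (2.91%, 1.34% to 6.21%), and besides EIF4A1 these included PABPC1L (4.28), a poly(A)-binding protein of oocytes, SRSF7 (3.82), an SR splicing factor, and DDX23 (3.66), a spliceosomal helicase. Cytoplasmic ribosomal protein genes gave 3 of 67 (4.48%, 1.53% to 12.4%), which were RPS21 (4.61), RPL3L (4.41), a form of muscle, and RPS10 (2.93), and mitochondrial ones 2 of 73 (2.74%, 0.755% to 9.45%), MRPL12 (3.34) and MRPL28 (2.93). Symbols of cell adhesion and matrix genes gave 11 of 197 (5.58%, 3.15% to 9.72%), including LAMC1 (4.30), a laminin chain, with COL6A1 and ITGA1 at 4.06 and PCDHA12 at 3.66. Solute carriers gave 10 of 356 (2.81%, 1.53% to 5.09%), including SLC25A20, SLC4A2 (4.61), an anion exchanger, SLC9A3 (4.30), the sodium-proton exchanger of gut and kidney, and SLC7A6OS (4.32), which lies opposite a carrier gene and is none itself. Ion channels gave 7 of 216 (3.24%, 1.58% to 6.54%), with KCNJ6 (4.30), a potassium channel gated by G proteins, KCNJ18, GABRR1 (4.07) and KCNK15 (4.07). Olfactory receptors had a peak in 4 of 371 cases (1.08%, 0.420% to 2.74%), OR2V2 (3.52), OR10AD1 (3.26), OR4D1 (3.09) and OR10G3 (2.71), in an interval below the share of all coding genes. Symbols in KRT gave 2 of 151 (1.32%, 0.364% to 4.70%), with an upper bound just short of that share. They comprised 94 genes of keratin-associated proteins, of which 0 had a peak, and 57 keratins, of which KRT8 (3.25), of simple epithelia, and KRT80 (2.92) had one.

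Further genes whose peaks had an FDR under 0.05, picked for a known function after their values were seen, spanned many roles. In chromatin and transcription they were MTA2 (4.75) of the NuRD complex, ARID2 (3.95) of the PBAF remodeller, HJURP (4.51), the chaperone of the centromeric histone CENP-A, ZNF384 (4.10) and CIPC (4.10), a repressor of the circadian clock. In RNA handling and translation they were CWC25 (4.77), a spliceosome factor, EIF5A2 (4.43), with the peak 5.5 bp from the start, LIN28A (4.51), which blocks let-7 maturation, GIGYF1 (4.55), a translational repressor, and PDCD4 (4.23), an inhibitor of EIF4A1, with the peak 14.5 bp from the start. Receptors and ligands included FGFR3 (4.74, past the far end), NTRK3 (4.51, 19 bp inside from the start), TNFRSF1A (4.55), the receptor of TNF, FGF18 (4.37) and IL17C (4.09). Signal transducers included GNB2 (4.55), a G protein subunit, and DVL2 (4.51) of the WNT pathway. Of the cytoskeleton and its contacts there were PXN (4.77), the focal adhesion protein paxillin, TJP1 (4.75), the tight junction protein ZO-1, SPIRE2 (4.93), an actin nucleator, COTL1 (4.69), PLEC (4.66), the linker protein plectin, CEP72 (4.51) of the centrosome and MZT2B (4.77) of the gamma-tubulin ring. Metabolic genes were ACADVL (4.51), the first enzyme of mitochondrial oxidation of very long fatty acids, UCK2 (4.51), which phosphorylates uridine and cytidine, PTGES3 (4.31), the HSP90 cochaperone p23, SCARB1 (4.41), the HDL receptor, PSAP (4.41), the precursor of the saposins, and TREH (4.41), which splits trehalose. CYGB (5.09), a globin, and ASGR1 (4.91), the asialoglycoprotein receptor of liver cells, also belonged to these genes. ACADVL and DVL2 shared 1 peak at their far ends, and GNB2 and GIGYF1 also shared 1 peak. MTA2 shared its peak with EML3, and the midpoint lay 472.5 bp before the start of MTA2 and 119.5 bp inside the far end of EML3. Of the 134 peaks of this kind, 58 (43.3%) were nearest a start, 46 (34.3%) a far end and 30 (22.4%) an end of a gene without strand, close to the 44.6%, 30.8% and 24.5% of all 791.

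Genes with a gene-end peak had a lower median length. Their median length was 19716 bp against 26262 bp for all coding genes, and the share with a peak was 5.14% (3.51% to 7.48%) up to 1000 bp, 5.66% (5.02% to 6.39%) at over 1000 to 10000 bp, 5.55% (4.93% to 6.25%) up to 30000 bp, 3.90% (3.40% to 4.47%) up to 100000 bp and 3.46% (2.88% to 4.16%) above. The shortest class did not continue this order, and without histone genes its share was the 2.60% given above. By chromosome the share of genes was highest on chromosome 20 (8.19%, 6.16% to 10.8%), followed by chromosome 16 (7.61%), chromosome 17 (7.10%) and chromosome 12 (6.54%). On chromosome 13 it was lowest, with 2 of 338 genes (0.592%, 0.162% to 2.13%), ahead of chromosome 18 (1.85%) and chromosome 22 (1.996%). Chromosome 1 held the most gene-end peaks, 86 among its 1647 peaks, then chromosome 17 with 75 among 1325. Chromosome 13 held only 105 peaks in all. The number of copies of each chromosome in these cells was not analysed here.

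Sequence features were read from RefSeq promoter windows, 19608 windows for the 13916 genes, of which some overlap. Gene-end peaks overlapped 232 windows of their own genes, from 216 genes and 211 peaks. These windows were richer in G+C, with a median of 65.5% against 62.3% over all windows. The share of windows under a peak was 0.248% below 50% G+C, 1.07% from 50% to 60%, 1.81% from 60% to 70% and 1.26% from 70%. Each motif was searched on both strands and counted on its own, also where matches of different motifs overlapped. CCCTCCCC was found in 62 of the 232 windows, or 26.7% (21.4% to 32.8%), against 15.9% (15.4% to 16.4%) of all windows. The match itself lay under the peak in 35 of the 62 (56.5%), beside 59.5% for GCGAGG, 63.5% for GGGCGG and 55.8% for CCAAT. It was 50% for TATAAA (9 of 18) and 42.9% for CTAATG (6 of 14), so the placement of CCCTCCCC lay within the range of the other motifs. At 60% to 70% G+C the shares were 27.0% (19.6% to 36.0%) and 17.7% (16.8% to 18.7%), and from 70% they were 34.8% (24.5% to 46.9%) and 26.8% (25.7% to 28.1%), where the intervals overlapped. They also overlapped at 50% to 60% G+C, with 17.8% (9.29% to 31.3%) and 11.3% (10.3% to 12.3%). PBX2 and MAP3K7, shown above, were among the genes with such a match. GCGAGG was in 31.9% (26.2% to 38.1%) against 27.2% (26.6% to 27.8%) of all windows, and at 60% to 70% G+C in 30.6% against 31.3%, so it did not stand apart at like composition. CTAATG was in 6.03% (3.63% to 9.87%) against 5.27% (4.97% to 5.60%). At 60% to 70% G+C it was in 10 of 111 windows, or 9.01% (4.97% to 15.8%), against 3.47% (3.04% to 3.96%), where the intervals did not overlap. In the other 3 classes of G+C the intervals for CTAATG overlapped, and the difference in the remaining class was not tested. Among the 14 windows under gene-end peaks that held CTAATG, the match itself lay under the peak in 6 (42.9%). The GC box GGGCGG was in 68.5% (62.3% to 74.2%) against 55.8%, but at 60% to 70% G+C in 68.5% against 69.5%. CCAAT was less frequent over all windows, in 22.4% (17.5% to 28.2%) against 34.1% (33.4% to 34.7%), also at 60% to 70% G+C with 19.8% (13.5% to 28.2%) against 34.4% (33.2% to 35.6%) and from 70% with 10.6% (5.23% to 20.3%) against 23.6% (22.4% to 24.7%). At 50% to 60% G+C it was not, with 40.0% (27.0% to 54.5%) against 39.2%, nor below 50%, with 5 of 10 windows against 41.8%. TATAAA was in 7.76% (4.96% to 11.9%) against 9.76%, and at 60% to 70% G+C in 6.31% (3.09% to 12.4%) against 4.11%. A match describes letters in the window and no binding site.

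Genes named in the study were also looked up. HNRNPK itself, CLCN3, a chloride-proton exchanger of endosomes, and XRCC5, the DNA repair protein Ku80, had 0 peaks within 500 bp of an end. The nearest peak midpoint lay 46.7 kb from an end of HNRNPK, 95.4 kb from CLCN3 and 3.48 kb from XRCC5. The peak near XRCC5 had a fold enrichment of 4.77 and an FDR of 0.0243. A gene-end peak was found at 4.72% of all coding genes, so its absence at these few genes is no result about them. The paper reports from its ChIP-seq that HNRNPK was enriched at the CLCN3 promoter. It adds a DNA pull-down and PCR on the pulled-down DNA as further evidence. The peak list holds no peak there, and the reason for this difference was not tested. A list of called peaks has no entry for weaker coverage, so signal below the caller's threshold at these genes was not analysed here.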

How the data were processed

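HNRNPK ChIP-seq of untreated H1299 cells comprised 1 IP and 1 input library, mapped from the labels. The values came from 1 peak list. The fold enrichment (a ratio) was deposited by the authors as the IP over the local background of each peak. The FDR, which is a q-value, was deposited by the authors, and their p-value was not used. The local background was (pileup + 1) / fold enrichment − 1. The pileup was deposited as scaled IP coverage and the peak length in bp. The submitters' processing notes name Trimmomatic 0.36, STAR 2.5.3a, MACS2, bedtools and HOMER with GRCh38. Total reads per library were not analysed here. Thresholds of the peak call were not given in the sources used here.

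Peaks were placed by midpoint on RefSeq GRCh38 protein-coding gene spans. The strand of a gene came from the RefSeq promoter table, which left 3759 coding genes without one. Shares carry Wilson 95% intervals (scipy) and counts of peak and gene pairs in the profile exact Poisson intervals, for counting error only. A peak near the ends of several genes entered the profile once per gene. Flanking density was counted 2500 to 5000 bp from an end. Genes were named from the top 20 peaks by fold enrichment (ties by peak name, 1 peak left out of text and figure), the 10 with the lowest FDR, up to 15 genes with 2 or more peaks, the 10 strongest peaks at 2 or more genes, up to 4 per gene group, and HNRNPK, CLCN3 and XRCC5. Gene groups were defined by symbol. The members and lists were chosen with earlier results of these data known. Alternatives were other windows, overlap by any base, stricter thresholds, added chromosomes and merging of peaks closer than 1000 bp. Placement, strand assignment, merging and motif search were tested on simulated data. Python 3.11.15, numpy 2.4.6, scipy 1.17.1, pandas 2.3.3 and matplotlib 3.10.9 were used.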

Additional observations from a re-analysis of the deposited data

How the results depend on the processing

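The number of gene-end peaks, 791, became 400 with a window of 250 bp and 1379 with 1000 bp, 134 with an FDR under 0.05 and 32 with a fold enrichment of at least 5. The percent of coding genes with a peak, 4.72, became 2.33 and 8.28 with those windows, 6.04 when any base of a peak counted, 0.854 and 0.209 with those thresholds, and 5.15 with chromosomes 19, X and Y added. The percent of peaks nearest a start, 59.1, was 54.5 with 1000 bp, 65.4 (17 of 26, 46.2 to 80.6) with the fold threshold and 55.8 (58 of 104, 46.2 to 64.9) with an FDR under 0.05, so under both thresholds the interval held 50. The median fold enrichment, 3.61, was 4.66 for peaks with an FDR under 0.05, and such an FDR was given to 100% of the 32 peaks that reached the fold threshold. The percent of promoter windows with GCGAGG, 31.9, was 23.3 (10 of 43) with the FDR threshold and 23.5 (4 of 17) with the fold threshold. These last 2 rest on few windows, and the cause was not tested.

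No paired analysis was possible because there was 1 IP and 1 input library. The pileup had a median depth of 8 overlapping fragments, and only 134 of the 791 had an FDR under 0.05. Several values were tied. A peak at the ends of 2 genes cannot be assigned to either, and peaks were placed by the outer ends of gene spans, while promoter windows also used annotated starts inside a span.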

Other observations

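Of the 791 gene-end peaks, 77 also lay within 500 bp of an end of a long noncoding RNA gene, or 9.73% (7.86% to 12%, counting error only). Of the 18884 other peaks of the same chromosomes, 413 did so, or 2.19% (1.99% to 2.41%). Coding and noncoding gene ends adjoin in many places, so the rule that chose the peaks bears on this difference, and its cause was not tested. BUD13-DT, a divergent transcript at the start of BUD13, had an end 37.5 bp from the midpoint of the peak shared with ZPR1 (fold enrichment 4.80), so within that peak. CEP72-DT and DYNLL2-DT, named as divergent transcripts of CEP72 and DYNLL2, had ends 301 bp and 283.5 bp from the midpoints of their peaks (4.51 and 4.43). At EIF4A1 the noncoding entry was the readthrough gene SENP3-EIF4A1, which runs into this coding gene. The choice of these genes was made after values were seen.

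Small RNA genes were rare at gene-end peaks and at the other peaks alike. A miRNA gene, MIR1825, lay within 500 bp of 1 peak, which was also at the far end of POFUT1 (fold enrichment 3.14), a tRNA gene, TRG-CCC2-2, within 500 bp of 1 peak at METTL26 (3.82), and a snoRNA gene at 0 of 791 peaks, with a Wilson interval up to 0.483%. The shares were 0.126% against 0.196% of the other peaks for miRNA, 0.126% against 0.0635% for tRNA and 0% against 0.0530% for snoRNA genes, on 1 or 0 gene-end peaks each.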
